A study of Mus musculus with 6 samples.

Results

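The miR-148 and miR-152 family was followed in the small RNA of membrane vesicles shed by primary mouse hepatocytes. Its members were chosen by name: mmu-miR-148a-3p, mmu-miR-148a-5p, mmu-miR-148b-3p, mmu-miR-148b-5p and mmu-miR-152-3p, which are 5 of the 1976 mature mouse miRNAs in the table (mmu marks the mouse and is left out from here on). The opposite arm of the third hairpin, miR-152-5p, is no member and is given beside them where the arms are compared. The cells came from wild-type C57BL/6J mice, and the labels call the vesicles exosomes. There were 2 groups of 3 libraries: vesicles of control cells with palmitic acid at 0 µM, and vesicles of cells given 600 µM palmitic acid, the saturated fatty acid that is commonly used to make liver cells store fat. The series title names hepatic steatosis and endothelial dysfunction, and the comparison bears on which miRNAs leave fat-laden hepatocytes in vesicles. The control vehicle, the time of treatment, the way the vesicles were isolated, and the age and sex of the mice are unstated in the sources used here. No label ties the libraries to separate mice or dishes, so each p-value rests on library-to-library spread alone, and that spread may be technical.

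A miRNA hairpin is cut into a duplex of a 5p and a 3p arm, and as a rule 1 arm is kept in the Argonaute protein while the other is degraded. The kept arm finds target transcripts mainly through its seed, bases 2 to 8 from the 5′ end, so miRNAs with the same seed share many predicted targets. The 3p arms of this family are known for targeting the DNA methyltransferase Dnmt1. miR-148a is one of the most abundant miRNAs of the liver, where it is known to repress the LDL receptor and the cholesterol exporter Abca1.

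The mature sequences show which arms share a seed and how little separates the 3p arms from each other. They are from RefSeq (build GRCm38.p6), matched by miRNA name for all 5 members and for miR-152-5p, with the seed in capitals.
miR-148a-3p: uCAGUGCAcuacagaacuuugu
miR-148b-3p: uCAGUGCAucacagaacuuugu
miR-152-3p: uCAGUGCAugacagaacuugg
miR-148a-5p: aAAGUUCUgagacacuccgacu
miR-148b-5p: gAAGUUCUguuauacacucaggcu
miR-152-5p: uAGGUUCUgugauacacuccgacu
The seed CAGUGCA was found in 3 of the 1679 mature names of that reference, the 3p arms shown here. The seed AAGUUCU was found in 2, miR-148a-5p and miR-148b-5p, whereas miR-152-5p carries AGGUUCU. Counted from 1 at the 5′ end, miR-148b-3p differs from miR-148a-3p by C9U and U10C and is the same at 20 of 22 bases. miR-152-3p differs from miR-148a-3p by C9U, U10G and U20G over 21 compared bases, and from miR-148b-3p by C10G and U20G. The counting rule is not given in the sources used here, so reads may have been split between the 3p arms, and the values of miR-148b-3p and miR-152-3p beside the far more abundant miR-148a-3p are uncertain to that extent.

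The hairpins lie on 3 chromosomes and show where the 2 arms, in capitals, sit in each precursor.
Mir148a: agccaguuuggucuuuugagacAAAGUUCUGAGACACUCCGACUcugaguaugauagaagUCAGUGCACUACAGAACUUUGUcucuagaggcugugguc
Mir148b: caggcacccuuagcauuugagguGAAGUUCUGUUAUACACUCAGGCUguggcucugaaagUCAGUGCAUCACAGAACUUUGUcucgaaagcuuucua
Mir152: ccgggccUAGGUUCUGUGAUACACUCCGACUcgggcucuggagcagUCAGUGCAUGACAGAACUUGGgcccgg
Mir148a is at chr6:51269812-51269910 on the minus strand of GRCm38. It overlaps no other gene of the GENCODE M21 annotation, and the nearest protein-coding gene, Nfe2l3, is 162760 bases away. Mir148b is at chr15:103285125-103285221 on the plus strand, in an intron of Copz1. Mir152 is at chr11:96850393-96850465 on the plus strand, in an intron of Copz2. Copz1 and Copz2 are paralogous genes for the zeta subunit of the COPI coat, which forms transport vesicles at the Golgi, and both are read on the same strand as the miRNA they hold.

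The deposited values are log2(adjusted count + 1), in which the reads of each library were moved to a common scale by a library factor. Whole read numbers were recovered from the deposited values and totalled 95244 to 657628 in the controls and 613476 to 799116 with palmitic acid. The fitted factors did not follow these totals, being 0.369 for control replicate 2 (657628 reads) and 1.69 for palmitic acid replicate 3 (613476 reads). Spread between libraries on the deposited scale thus depends on the factors as well as on the reads. The hepatocyte miRNA miR-122 was present in all 6 libraries, but the 4 miR-122 and miR-122b arms held 69.2% to 87.7% of control reads and 11.7% to 15.3% of palmitic acid reads. That left 29342, 80739 and 52595 reads for all other miRNAs in control replicates 1, 2 and 3, and 534296 to 676798 with palmitic acid. Every share is taken of 1 library total, so a share of all reads moves with the miR-122 share, and the members are therefore given on both denominators. Read totals measure neither the number of vesicles nor the RNA per vesicle, so fewer vesicles and less RNA per vesicle cannot be told apart in these libraries.

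miR-148a-3p was the dominant member and one of the most abundant miRNAs of every library. Its recovered reads were 5557, 49440 and 10266 for control replicates 1 to 3. They came to 137456, 110067 and 187270 for palmitic acid replicates 1 to 3. It ranked 4, 3 and 4 among all miRNAs in the control libraries, behind miR-122-5p, miR-122b-3p and, in replicates 1 and 3, miR-6239. With palmitic acid it ranked 2, 2 and 1, and in replicate 3 it was the most abundant miRNA of the library, ahead of miR-21a-5p.

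As deposited, the log2 values of miR-148a-3p were 14.07, 17.03 and 14.44 in the controls and 16.04, 15.23 and 16.76 with palmitic acid. Control replicate 2 lay above all 3 palmitic acid libraries and the other two controls lay below them, so the groups overlapped. The difference was 0.83 (SE 0.92, 95% interval -1.30 to 2.96), which did not pass the test (limma, Benjamini-Hochberg adjusted p = 0.453 over 181 tested miRNAs). Without control replicate 2 it was 1.75 with an adjusted p of 0.0254 (limma), and over its 13 alternatives the adjusted p ran from 0.00206 to 0.966.

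**Figure D1:**
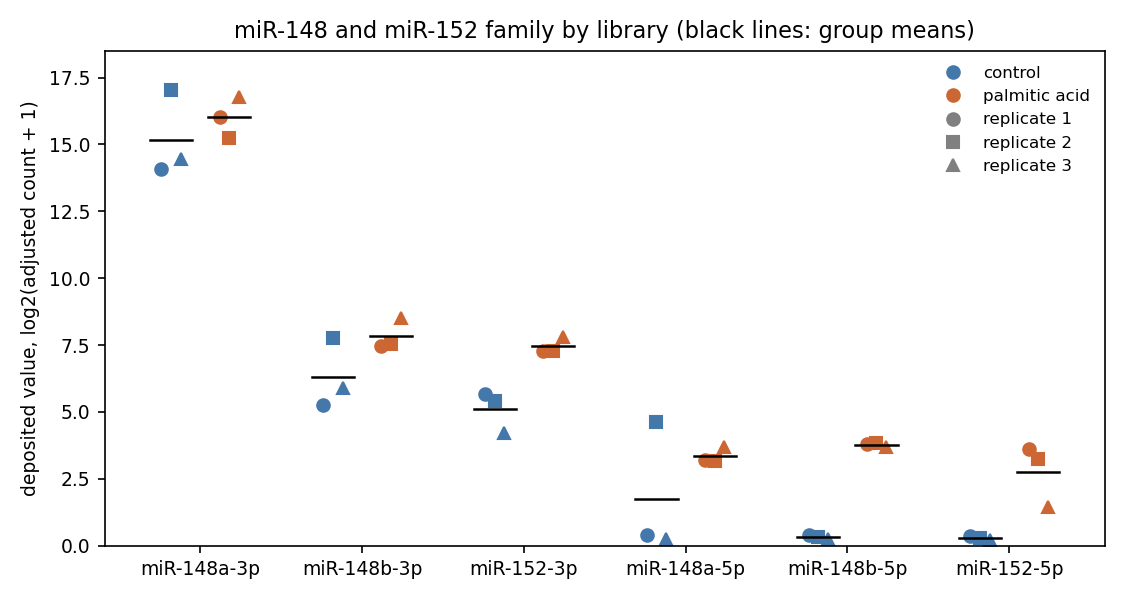
Deposited log2(adjusted count + 1) of the 5 members and of miR-152-5p, with 1 point per library, blue for control and orange for palmitic acid, symbols for the replicate number and black lines for group means. For miR-148a-3p control replicate 2 (17.03) stands above all 3 palmitic acid libraries, whereas for miR-152-3p the groups do not overlap.

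As a share of all recovered reads, miR-148a-3p held 5.83% in control replicate 1 (Clopper-Pearson 95% limits 5.69 to 5.99), 7.52% in replicate 2 (7.45 to 7.58) and 4.07% in replicate 3 (3.99 to 4.15). The corresponding shares were 17.2% (17.1 to 17.3), 14.4% (14.4 to 14.5) and 30.5% (30.4 to 30.6) with palmitic acid. Such limits, like the floors used below for the 5p arms, account for nothing but the counting error of reads. Whether PCR copies of 1 molecule were counted as separate reads is not given in the sources used here. Every palmitic acid library was above every control on this scale. The 3 members with the seed CAGUGCA together averaged 5.83% ± 1.73 in the controls and 20.8% ± 8.63 with palmitic acid (SD, n = 3 each), a difference of 15.0 percentage points (exact two-sided permutation p = 0.1, the smallest that 3 against 3 allows, 0.4 adjusted over 8 such tests).

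Without the miR-122 arms in the denominator the groups were no longer separated. The summed 3p arms held 19.0%, 61.4% and 19.6% of the remaining reads in control replicates 1 to 3, against 20.4%, 16.5% and 35.2% after palmitic acid. Control replicate 2 was the highest of the 6 libraries, and the other two controls lay between palmitic acid replicates 1 and 2. The means were 33.3% ± 24.3 and 24.1% ± 9.88 (SD, n = 3 each), a difference of -9.27 percentage points (exact two-sided permutation p = 0.7), and 4.74 points without control replicate 2.

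**Figure D2:**
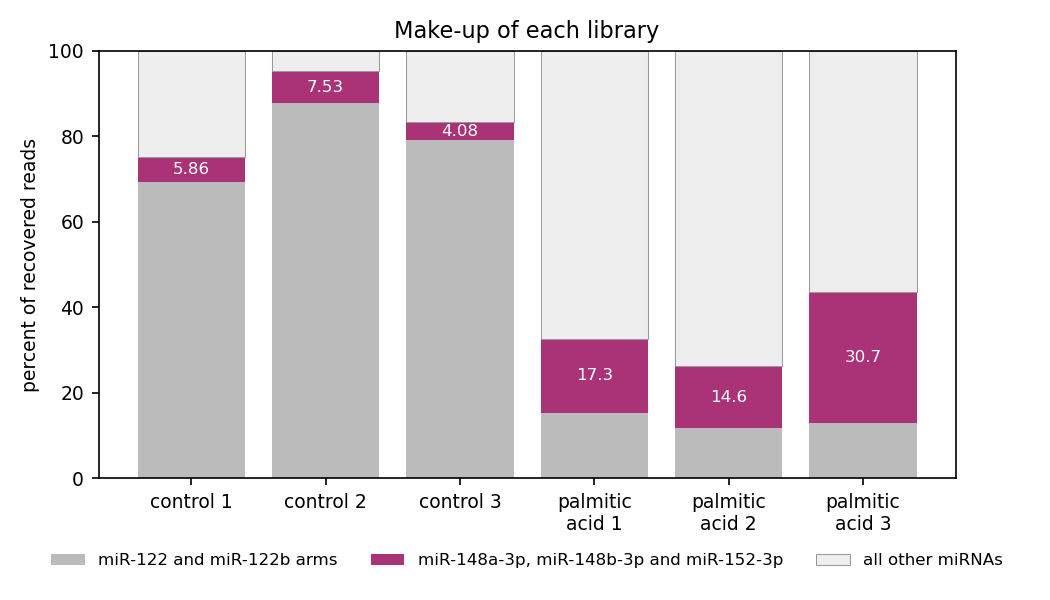
Percent of recovered reads in each library held by the 4 miR-122 and miR-122b arms (grey), by the summed 3p arms of the family (purple, percent printed) and by all other miRNAs (light). The family holds 4.08% to 7.53% of control reads and 14.6% to 30.7% of palmitic acid reads, while the miR-122 part falls from 69.2% or more to 15.3% or less.

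miR-148b-3p, the intronic copy in Copz1 with the same seed, was far less abundant. It was read 12, 80 and 27 times in control replicates 1 to 3, and 362, 526 and 615 times after palmitic acid. In reads per 1000000 (RPM) of all reads that was 126, 121.6 and 107 in the controls and 453, 690 and 1002 with palmitic acid. The controls were close together on this scale and the groups did not overlap, with means of 118 ± 9.95 and 715 ± 276 (SD, n = 3 each), a ratio of 6.05 beside a median of 4.21 over the 181 tested miRNAs. In RPM without the miR-122 arms it stood at 409, 991 and 513 in the controls and at 535, 782 and 1151 with palmitic acid. There the groups overlapped, since control replicate 2 was above palmitic acid replicates 1 and 2, and the ratio of means was 1.29 beside a median of 1.04 over all tested.

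As deposited, miR-148b-3p stood at 5.28, 7.77 and 5.90 in the controls and at 7.47, 7.53 and 8.52 with palmitic acid on the log2 scale. Here too control replicate 2 lay above palmitic acid replicates 1 and 2. The difference of 1.53 (SE 0.74, 95% interval -0.19 to 3.24) did not pass (limma adjusted p = 0.109). Without control replicate 2 it was 2.25 with an adjusted p of 0.0166 (limma; 0.0166 to 0.603 over its 13 alternatives).

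miR-152-3p, the copy in Copz2, was the 3p member that passed the test as deposited. Its reads were 16, 15 and 8 in the controls and 314, 443 and 370 with palmitic acid. The log2 values were 5.68, 5.40 and 4.21 in the controls and 7.27, 7.28 and 7.79 with palmitic acid, so every palmitic acid library was above every control. It rose by 2.35 (SE 0.67, 95% interval 0.80 to 3.90; limma adjusted p = 0.0166), a 5.10-fold rise in adjusted count + 1, and was higher in 3 of 3 palmitic acid libraries. Of the 181 tested miRNAs 42.0% rose and 14.4% fell, with a median change of 1.94. The groups did not overlap in 48.6% with palmitic acid higher and in 19.3% with palmitic acid lower. A rise of 2.35 was thus near the middle of the tested miRNAs (rank 80 of 181). These 181 include miRNAs such as miR-148b-5p that passed the filter through the palmitic acid libraries alone, which fixed their rise. With no filter on low values 8.32% of 1058 miRNAs rose and 5.67% fell, at a median of 0.20. In 108 of the 1058 no read was recovered from the 6 libraries. The small control values given to 0 reads fixed their direction as lower, so these shares are no neutral background. The call of miR-152-3p was lost without palmitic acid replicate 1, 2 or 3 (limma adjusted p = 0.0645, 0.0766 and 0.0905, at 2.44, 2.43 and 2.18), and it stayed without each control library. Its adjusted p ran from 0.00777 to 0.197 over 13 alternatives.

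Among the controls of miR-152-3p, replicate 3 stood lowest on the deposited scale, whereas replicate 1 stood well above the other two in RPM. The controls stood at 168, 22.8 and 31.7 RPM of all reads, a 7.36-fold range, and the palmitic acid libraries at 393, 582 and 603. Without the miR-122 arms the controls stood at 545, 186 and 152.1 RPM and the palmitic acid libraries at 464, 659 and 693. Control replicate 1 then lay above palmitic acid replicate 1 and the groups overlapped, with a ratio of means of 2.06. Thus on the scale of all reads the groups of miR-148a-3p, miR-148b-3p and miR-152-3p were each separated with palmitic acid higher, where 55.8% of the tested miRNAs were, and 5.52% were separated with palmitic acid lower. Without the miR-122 arms none of these 3 was separated, where 36.5% of the tested miRNAs were separated with palmitic acid higher and 28.7% with palmitic acid lower.

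**Figure D3:**
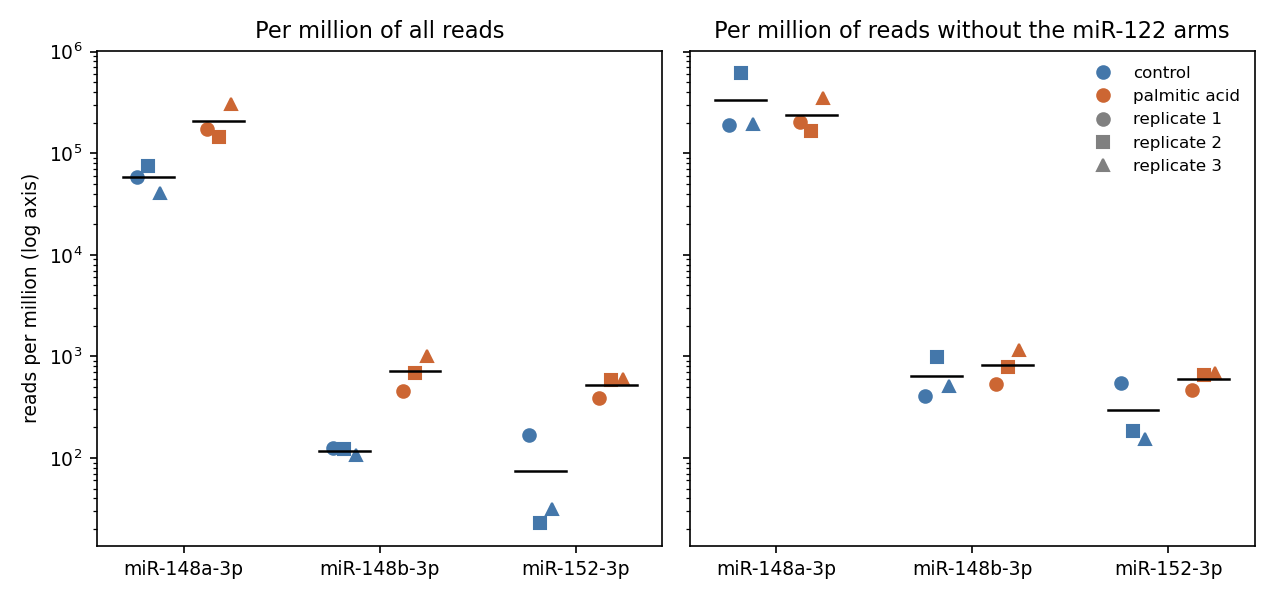
Reads per 1000000 (RPM) of miR-148a-3p, miR-148b-3p and miR-152-3p on a log axis, of all reads (left) and of reads left after removing the miR-122 and miR-122b arms (right), with 1 point per library and black lines for group means. On the left no control reaches a palmitic acid library for any of the 3, and on the right the groups of each overlap.

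The change of scale was tested across all miRNAs in the same way. With library totals as the scale miR-148a-3p rose by 1.80, miR-148b-3p by 2.50 and miR-152-3p by 3.30 (limma adjusted p = 0.00206, 0.0229 and 0.0212), while the median of all tested miRNAs was 2.89. With totals without the miR-122 arms the differences were -0.32, 0.40 and 1.24 (limma adjusted p = 0.641, 0.603 and 0.197), at a median of 0.93. With each library centred on its median tested miRNA they were 0.04, 0.74 and 1.56 (limma adjusted p = 0.966, 0.419 and 0.0613), at a median of 1.15. Relative to the median change of the tested miRNAs as deposited, miR-148a-3p stood at -1.11, miR-148b-3p at -0.41 and miR-152-3p at 0.41. In each of these fits miR-148a-3p had the smallest difference of the 3 and miR-152-3p the largest.

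**Figure D4:**
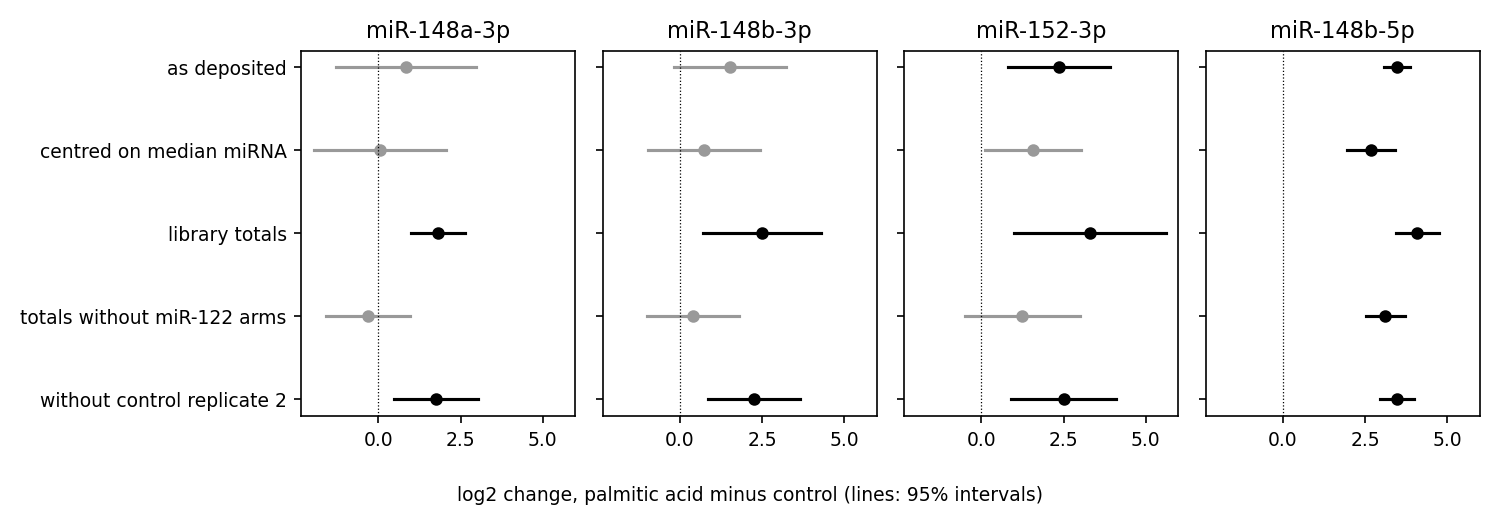
Log2 change, palmitic acid minus control, of the 4 tested members (points) with 95% intervals (lines) under 4 scales and without control replicate 2; black marks a limma adjusted p below 0.05 and grey one at or above it. miR-148a-3p and miR-148b-3p are black with library totals and without control replicate 2. miR-148b-5p is black in all 5, but it has no control read and its direction was fixed by the filter, so its points and intervals are a description.

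Ratios within a library do not move with the library scale, so they show whether the members differed from each other. miR-148a-3p made up 99.5%, 99.8% and 99.7% of the reads with the seed CAGUGCA in the controls and 99.5%, 99.1% and 99.5% with palmitic acid. miR-148b-3p reads came to 0.216%, 0.162% and 0.263% of miR-148a-3p reads in the controls and to 0.263%, 0.478% and 0.328% with palmitic acid. Control replicate 3 and palmitic acid replicate 1 met at the same level and the other libraries were separated. The log2 ratio of miR-148a-3p to miR-148b-3p was 8.87 ± 0.36 in the controls and 8.17 ± 0.43 with palmitic acid (SD, n = 3 each), a difference of -0.69 (exact two-sided permutation p = 0.2, 0.4 adjusted over the 8 tests).

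miR-152-3p varied more widely against miR-148a-3p. It came to 0.288%, 0.0303% and 0.0779% of miR-148a-3p reads in the controls and to 0.228%, 0.402% and 0.198% with palmitic acid. Control replicate 1 lay among the palmitic acid libraries, and the other two controls were below them. The log2 ratio of miR-148a-3p to miR-152-3p was 10.1 ± 1.63 against 8.57 ± 0.54 (SD, n = 3 each), a difference of -1.52 (exact two-sided permutation p = 0.3, 0.457 adjusted), which was -2.37 without control replicate 1 and -0.75 without control replicate 2. The ratio of miR-148b-3p to miR-152-3p reads ran from 0.75 to 5.33 in the controls and from 1.15 to 1.66 with palmitic acid (difference of the log2 ratios -0.83, exact two-sided permutation p = 0.4; -1.64 without control replicate 1 and -0.25 without control replicate 2). None of these 3 differences passed its test, and 3 libraries against 3 cannot give an exact p below 0.1, so a like response of the 3p members was not shown either. The 3 ratios rest on 8 to 80 control reads of the lesser members.

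**Figure D5:**
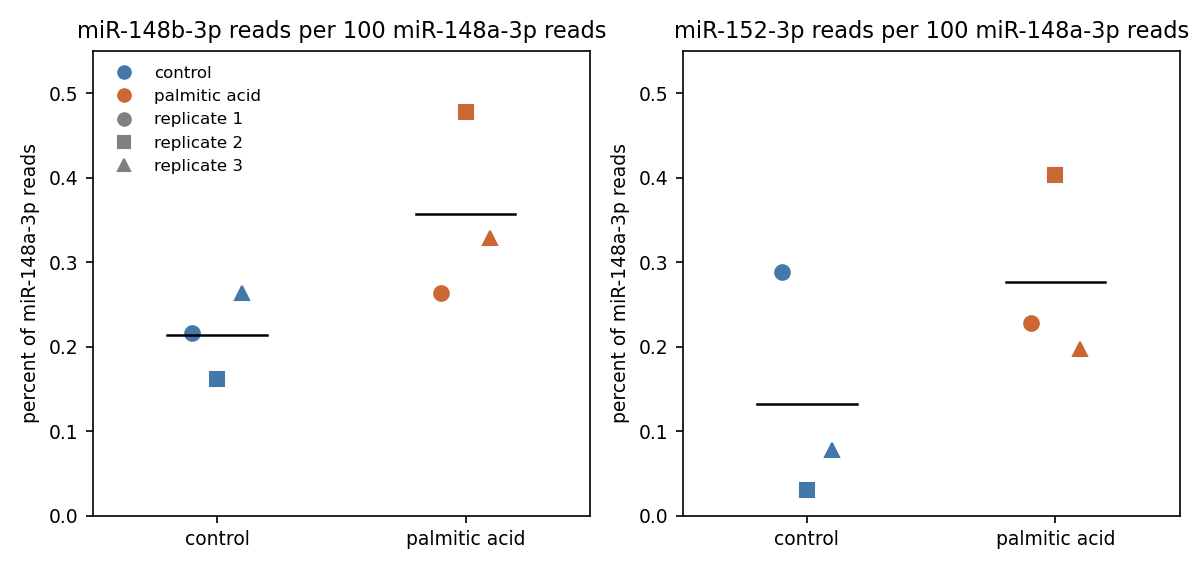
Reads of miR-148b-3p (left) and miR-152-3p (right) as a percent of miR-148a-3p reads of the same library, with 1 point per library and black lines for group means. For miR-148b-3p the groups meet at 0.263%, and for miR-152-3p control replicate 1 (0.288%) lies among the palmitic acid libraries.

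The 5p arms, the arms as a rule discarded in this family, were close to the limit of detection. miR-148a-5p had 0, 9 and 0 reads in the controls, all in replicate 2, and 17, 23 and 20 with palmitic acid. It did not reach the minimum of an adjusted count of 10 in 3 libraries and was not tested as deposited. Its log2 values were 0.40, 4.64 and 0.25 in the controls and 3.21, 3.16 and 3.68 with palmitic acid. The control with reads was the one with the most miR-148a-3p, and on this scale it lay above all 3 palmitic acid libraries. In RPM of all reads it stood at 13.7, below the 21.3, 30.2 and 32.6 of the palmitic acid libraries, and without the miR-122 arms at 111, above their 25.1, 34.2 and 37.4. The position of that control thus changed with the denominator. With no filter on low values the difference was 1.59 (limma adjusted p = 0.469), in a fit where 8.32% of 1058 miRNAs rose and 5.67% fell. Of these 1058, 108 had no recovered read and a direction fixed as lower. Without control replicate 2 the difference of miR-148a-5p was 3.02. No control read was then left, so the direction was fixed and the value is a description.

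miR-148b-5p had no read in any control library and 26, 38 and 20 reads with palmitic acid. Its control log2 values of 0.38, 0.32 and 0.23 are what the adjustment gives to 0 reads, so their spread was not measured. It passed the filter through the palmitic acid libraries alone, which fixed the direction of its change of 3.46 (limma adjusted p = 3.4e-06) and makes both values a description. Setting the control group as a whole to a floor of 3 reads, it was at least 12.9-fold higher with palmitic acid in RPM of all reads, and at least 2.42-fold higher without the miR-122 arms. Control replicate 2 holds most of the control reads, and without it the bounds were 4.48-fold and 1.22-fold. miR-152-5p had no control read either and 23, 24 and 3 reads with palmitic acid. Pooled over the palmitic acid libraries it was at least 7.70-fold higher in RPM of all reads (2.66-fold without control replicate 2) and was not tested. That bound does not hold for palmitic acid replicate 3 alone. It stood at 4.89 RPM, beside 28.8 and 31.5 in replicates 1 and 2 and a control floor of 2.98 RPM. Its 5.61 RPM without the miR-122 arms lay below the control floor of 18.4 RPM. Without the miR-122 arms the bound of 1.44-fold rested on single libraries: without control replicate 2 or 3 the control floor, at 36.6 and 27.3 RPM, lay above the 26.5 RPM of the pooled palmitic acid libraries.

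The 3p arm led in every hairpin, by very different margins. With palmitic acid there were 7247 miR-148a-3p reads per miR-148a-5p read over the 3 libraries (4786 to 9364), but 17.9 for mir-148b (13.8 to 30.8) and 22.5 for mir-152 (13.7 to 123). At those ratios the 65263 control reads of miR-148a-3p would go with 9.01 reads of the 5p arm, and 9 were found. The 119 control reads of miR-148b-3p would go with 6.65 reads of miR-148b-5p, and the 39 of miR-152-3p with 1.73 of miR-152-5p, where none was found. With 0.5 reads added to each count, the log2 arm ratio differed by -0.61 for mir-148a (exact two-sided permutation p = 0.4) and by -1.77 for mir-148b (p = 0.2 in the same exact test). Both turned positive, to 0.69 and 0.07, with 2 reads added. Where a control has no read of the 5p arm, its ratio is set by the 3p reads and the reads added. These ratios thus cannot show whether the arms shifted.

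The spread between replicates differed among the members and between the groups. On the deposited scale the highest control was 7.78-fold above the lowest for miR-148a-3p, 5.76-fold for miR-148b-3p and 2.86-fold for miR-152-3p. With palmitic acid the same ranges were 2.89-fold, 2.07-fold and 1.43-fold. The SD of the log2 values of miR-148a-3p was 1.61 in the controls and 0.77 with palmitic acid, against medians of 1.07 and 0.45 over the tested miRNAs. miR-152-3p lay below those medians in both groups, at 0.78 and 0.29. As a share of all reads the controls ranged 1.85-fold for miR-148a-3p, 1.18-fold for miR-148b-3p and 7.36-fold for miR-152-3p, so miR-152-3p went from the narrowest to the widest range. The control ranges of miR-148b-3p (12 to 80 reads) and miR-152-3p (8 to 16 reads) hold much counting error. Without the miR-122 arms the ranges were 3.23-fold, 2.42-fold and 3.58-fold.

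Profiles most like that of miR-148a-3p were sought by the root mean square distance between deposited log2 values, each miRNA centred on its own mean over the 6 libraries. Of the other members miR-148b-3p was at 0.48, nearer than any tested miRNA outside the family, miR-152-3p at 1.25 and miR-148b-5p at 1.69, beside a median of 1.89 over the tested miRNAs outside the family. The nearest outside it were miR-191-5p at 0.50, miR-122b-5p at 0.57, let-7d-5p at 0.59, miR-192-5p at 0.77 and miR-92a-3p at 0.80.

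Among the other miRNAs known to act on cholesterol uptake and efflux, 4 of 9 listed were tested, of which 2 rose and 1 fell as deposited, with a median change of 0.97, beside 42.0%, 14.4% and a median of 1.94 over all tested miRNAs. miR-27b-3p rose by 1.26 (limma adjusted p = 0.0137), miR-128-3p fell by 3.86 (limma adjusted p = 0.00542), and miR-27a-3p stood at 0.69 (limma adjusted p = 0.185). The other one counted as risen, miR-185-5p at 3.87, had 1, 2 and 4 control reads. It passed the filter through the palmitic acid libraries, which fixed its direction, so that value is a description. With library totals 2 of the 4 were higher and none lower (95 and 8 of 181 over all), and with totals without the miR-122 arms 1 was higher and 1 lower (58 and 44 of 181), at a median of -0.17. Of the 3 miR-29 arms, known to target the methyltransferases Dnmt3a and Dnmt3b, miR-29a-3p rose by 3.69 (limma adjusted p = 0.00542) and miR-29b-3p stood at 3.32 (limma adjusted p = 0.0776). miR-29c-3p had 1 read over the 3 controls and passed the filter through the palmitic acid libraries, which fixed its direction, so its 6.29 is a description. With totals without the miR-122 arms 1 of the 3 arms passed.

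Of the hepatocyte list 6 of 7 miRNAs were tested, and 3 rose and 1 fell as deposited, with a median change of 1.502, beside 42.0%, 14.4% and a median of 1.94 over all tested miRNAs. miR-192-5p rose by 1.94 (limma adjusted p = 0.0259), miR-122-5p fell by 3.56 (limma adjusted p = 0.0141) and miR-194-5p stood at -0.23 (limma adjusted p = 0.720). The other risers were miR-101a-3p at 4.65 and miR-101b-3p at 5.44 (limma adjusted p = 0.000163 and 9.77e-05). Without the miR-122 arms in the totals 2 were higher and 2 lower (58 and 44 of 181 over all). Markers of other cells that the preparations could hold summed to 0.570% of reads or less in each of 5 lists and every library, and of their members that were tested 8 in all, none rose and 3 fell as deposited (1 immune, 1 erythroid, 1 muscle), beside 14.4% of all tested miRNAs. With library totals 1 of the 8 was lower (muscle; 8 of 181 over all) and with totals without the miR-122 arms 7 were (44 of 181). The 5 stellate cell and fibroblast miRNAs summed to 0.0157% to 0.216% of control reads and 0.0491% to 0.0638% with palmitic acid, and the 6 immune and Kupffer cell miRNAs to 0.0206% to 0.162% and 0.0202% to 0.0398%. The 2 endothelial miRNAs summed to 0.0865% to 0.342% and 0.374% to 0.496%, the 3 erythroid ones to 0.00380% to 0.570% and 0.00245% to 0.0160%, and the 3 striated muscle ones to 0.00958% to 0.236% and 0.00263% to 0.00501%. No read of miR-144-3p (erythroid) or miR-133a-3p (striated muscle) was recovered from any library. The part of these cells in the members' values was not tested.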

How the data were processed

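Per the labels' protocols, RNA was taken up in Trizol and made into libraries with a NEBNext Multiplex small RNA kit. Bowtie2, bedtools, GRCm38 and mm10 are named, without roles, per the submitters' processing notes; how reads were assigned to miRNAs, and the annotation, is not given in the sources used here. Although named as raw counts, the deposited table holds log2 values. The values have the form log2(adjusted count + 1), with counts moved to a common scale by a negative binomial quantile adjustment (dispersion fitted at 1.39). No label states this step. The adjustment was inverted: of 4387 values low enough to tell (at least 0.02 in log2 to the next read number), 99.9% lay within 0.0015 of a whole number of reads. The dispersion, the library factors and 1 mean per miRNA were fitted to these same values, so that share measures the fit and is no independent check. Library factors were scanned for the most whole values, since the fit can otherwise stop at a poorer solution. In 108 rows no read was recovered from the 6 libraries although small control values stand there, so libraries not analysed here may have entered it. Rounding leaves large read numbers uncertain in the last digits.

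A group difference was fitted with limma 3.58.1 under R 4.3.3 (trended variance, two-sided) to the deposited log2 values of the 181 miRNAs whose adjusted count reached 10 in 3 or more libraries, with Benjamini-Hochberg adjustment at 0.05. Folds from this fit are those of log2(adjusted count + 1), which makes changes of low miRNAs look smaller. Shares and ratios (0.5 reads added) came from recovered reads and were compared by exact permutation tests. The recovery of reads and the limma fit were tested on simulated data. The recovery was started close to the true factors, so that test could not show whether the fit stops at a poorer solution. The limma test used normal noise without a floor of 0 reads, so it does not cover members with few reads. Named were the members, miR-152-5p, the miR-122 arms, the 5 nearest profiles and the 3 most abundant tested miRNAs of the lists described by name. The other risers of the cholesterol and hepatocyte lists were named to complete their counts. Other marker lists are given as sums. The other most abundant miRNAs were named for rank. The members and lists were chosen with earlier results of these data known. Alternatives were another pseudocount (5), no filter, 3 scales, limma voom on recovered reads, a replicate block and leaving out each library.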

Additional observations from a re-analysis of the deposited data

How the results depend on the processing

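The choice of scale and single libraries moved the calls of the family. miR-148a-3p, at 0.83 as deposited, passed with library totals (1.80), with limma voom on recovered reads (1.73) and without control replicate 2, and turned to -0.32 with totals without the miR-122 arms. Leaving out each library in turn gave 0.28 to 1.75. miR-148b-3p, at 1.53, passed with library totals (2.50), with voom (2.48) and without control replicate 2, with 1.006 to 2.25 when each library was left out. miR-152-3p, at 2.35, no longer passed when libraries were centred on their median (1.56), with totals without the miR-122 arms (1.24), or without any 1 palmitic acid library, and lay between 1.91 and 2.64 when each library was left out. For miR-148b-5p, with no control read and a direction fixed by the filter, the fitted value ran from 1.75 to 4.26 over its alternatives, and miR-148a-5p ran from 0.62 (pseudocount 5) to 3.02 (without control replicate 2). Without control replicate 2 miR-148a-5p had no control read left, which fixed its direction. Leaving out each library for the bounds of the 5p arms was chosen after seeing the data. The arm ratios moved to 0.69 (mir-148a) and 0.0699 (mir-148b) with 2 reads added. The difference in the summed share without the miR-122 arms ran from -16.4 to 4.74 percentage points when each library was left out.

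Across the table, 76 miRNAs were higher and 26 lower as deposited. The lower count became 60 with no filter (88 higher), 40 with centring (65 higher), 8 with library totals (95 higher), 44 with totals without the miR-122 arms (58 higher) and 9 with voom (94 higher). The fit with no filter held 1058 miRNAs, of which 108 had no recovered read and a direction fixed as lower. Causes of these shifts were not tested. Same-numbered libraries deviated together with r = 0.209, 0.151 and 0.0383, and differently numbered ones with r from -0.183 to 0.0623. Whether a shared number marks a shared batch or mouse is not known and cannot be settled by these values. With the replicate block 83 were higher and 28 lower, and miR-148a-3p (limma adjusted p = 0.592), miR-148b-3p (0.0805) and miR-152-3p (0.0296) kept their side of the threshold. Control libraries had 29342 to 80739 reads other than miR-122, which limits the 5p arms, miR-148b-3p and miR-152-3p.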
